A study of Mus musculus with 8 samples.

Results

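The genes described here are 8 members of the Meis, Pbx and Pknox families of transcription factors: Meis1, Meis2, Meis3, Pbx2, Pbx3, Pbx4, Pknox1 and Pknox2. They were taken by symbol from the gene counts, where all 8 were found among 24421 genes, and they are not every gene of these families. Long reads had been collected from R1 mouse embryonic stem cells (ESCs) before differentiation (Undiff) and after 4 days of retinoic acid (RA) (Day4). Poly(A) RNA went through nanopores of Oxford Nanopore Technologies (ONT) either with the Direct RNA kit, which reads the native RNA strand, or with the cDNA kit, which reads PCR-amplified copies. Each state was sequenced on each platform in 2 replicates that were grown and treated separately, giving 8 libraries in 4 groups. The study's results section states that RNA of the duplicate samples was used for both kits, so that the platforms are not separate cultures. Which library of one kit shares a culture with which of the other is not given in the sources used here.

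The Undiff cells received no RA, and per the study's methods they were maintained as ESCs, although the labels give embryoid bodies as the tissue of all samples. The Day4 cells had been grown as embryoid bodies, floating clumps of differentiating cells, for 4 days without the factor that keeps ESCs undifferentiated and then for 4 days with RA. The RA dose is 2 µM in the series' design text and in the methods, while the sample labels give the unit as mM. Both states come from the same ESC line, and a change between them covers the passage through embryoid bodies as well as RA.

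Meis, Pbx and Pknox proteins belong to the TALE class of homeodomain proteins and are known as cofactors of the Hox proteins, which set position along the body axis. Pbx proteins bind DNA together with Hox proteins, and Meis and Pknox proteins bind to Pbx, which keeps Pbx in the nucleus and forms larger complexes on DNA. Meis1 was named as a site of virus integration in myeloid leukaemia, and Meis and Pbx genes are known to respond to RA in embryonal carcinoma cells, a relative of ESCs. The Pknox proteins, also called Prep, compete with Meis for the same partner surface of Pbx.

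Reads counted on genes ranged from 283461 to 907489 in the Direct RNA libraries and from 948657 to 2088592 in the cDNA libraries, so that a floor of 3 reads in a library stood at 1.44 to 10.6 counts per 1e6 reads on genes (CPM). The sums of 10 pluripotency markers, which include Pou5f1 and Nanog, were 11700 to 14000 CPM in Direct RNA Undiff and 123 to 550 CPM in Direct RNA Day4, and 21600 to 24700 against 86.5 to 951 CPM in cDNA. Markers of other cell types differed between the states as well. In Direct RNA, 7 endoderm markers summed to 11.5 to 13.2 CPM in Undiff and 671 to 1040 CPM in Day4, 7 mesoderm markers to 11.5 to 14.3 and 600 to 667 CPM, and 6 markers of fibroblasts or mesenchyme to 7.71 to 14.3 and 1220 to 2940 CPM. In cDNA the same lists summed to 1.05 to 4.31 and 204 to 242 CPM, 4.79 to 7.38 and 91.8 to 171 CPM, and 4.31 to 8.43 and 220 to 231 CPM. Col1a2, Col3a1, Lum and Postn were at 0 in every Undiff library, though Lum had only 0 to 5 reads in Day4. Thy1 of the same list was lower in Day4. It had 3 and 6 reads in Direct RNA Undiff against 0 and 3 in Day4. In cDNA the reads were 7 and 8 against 0 and 2. T and Mesp1, which define early mesoderm, were at 0 in every Day4 library but had only 0 or 1 read in Undiff. The higher mesoderm sums in Day4 came mostly from Hand2, Foxf1 and Twist1. Hand1 had 1 to 8 reads in Undiff and 0 to 3 in Day4. The 8 neural markers summed to 176 to 189 CPM in Undiff and 63.5 to 99.0 CPM in Day4 in Direct RNA, and to 86.4 to 186 and 44.8 to 50.1 CPM in cDNA, and most of the Undiff sum was Tubb3. Tubb3 had 57 and 115 reads in Direct RNA Undiff against 3 and 11 in Day4, and 66 and 339 against 38 and 46 in cDNA. Nes had more reads in Day4, with 2 and 11 against 11 and 40 in Direct RNA and 1 and 5 against 15 and 32 in cDNA. The part of these cell types in the changes of Meis, Pbx and Pknox genes was not tested.

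The 8 genes lie on 6 chromosomes of GRCm38, the assembly that mm10 also names, and their longest annotated transcripts differ widely. Meis1 (ENSMUSG00000020160.18, chr11:18879817-19018985, minus strand) has the longest, 7553 bases. Meis2 (ENSMUSG00000027210.20, chr2:115863064-116065839, minus strand) has 5498 bases, and Meis3 (ENSMUSG00000041420.18, chr7:16175090-16186504, plus strand) has 1925 bases. Pbx2 (ENSMUSG00000034673.14, chr17:34591266-34597400, plus strand) has 3068 bases, Pbx3 (ENSMUSG00000038718.15, chr2:34171457-34373142, minus strand) has 2858 bases and Pbx4 (ENSMUSG00000031860.17, chr8:69832491-69872292, plus strand) has the shortest, 1560 bases. Pknox1 (ENSMUSG00000006705.13, chr17:31564734-31607693, plus strand) has 4252 bases and Pknox2 (ENSMUSG00000035934.16, chr9:36890982-37147407, minus strand) has 3632 bases. These annotations come from GENCODE vM21 and show which genes share exons with another gene. Exons of Pbx2 overlap those of Gpsm3 on the same strand, but Gpsm3 had at most 25 reads in any library. Exons of Meis1 overlap Gm16140 on the opposite strand and Gm37818 on the same strand, and those of Pknox1 overlap AC166172.4 on the opposite strand. Apart from Gpsm3, these genes are not among the counted symbols, and the cDNA counting is not stated to use the strand, so reads from an antisense transcript cannot be told from Meis1 or Pknox1 reads in cDNA.

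Promoters are shown because Meis1, Meis2 and Pbx2 rose in Day4 on both platforms while Pbx4 did not pass the test. Promoter sequences from RefSeq on GRCm38.p6 were matched for 5 of the 8 genes. The 100 bases before the annotated start site are given 5′ to 3′ on the strand of the gene, and capitals mark short promoter motifs on either strand. In Pbx2 the capitals are the reverse complement of the GC box GGGCGG. The CCAAT box is marked as such in Meis1 and as its reverse complement ATTGG in Pbx4. No TATA box (TATAAA) lies in these stretches. The stretches are chr11:19018970-19019069 for Meis1, chr2:116064620-116064719 for Meis2, chr7:16175295-16175394 for Meis3, chr17:34592159-34592258 for Pbx2 and chr8:69832524-69832623 for Pbx4. The RefSeq start sites lie inside the GENCODE spans given above, so that other transcripts of these genes can start further upstream.
Meis1: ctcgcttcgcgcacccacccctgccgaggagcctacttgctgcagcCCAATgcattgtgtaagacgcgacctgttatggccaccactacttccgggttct
Meis2: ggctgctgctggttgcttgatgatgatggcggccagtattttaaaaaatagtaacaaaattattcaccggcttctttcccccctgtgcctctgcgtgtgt
Meis3: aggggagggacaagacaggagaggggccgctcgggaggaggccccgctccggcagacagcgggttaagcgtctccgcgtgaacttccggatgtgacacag
Pbx2: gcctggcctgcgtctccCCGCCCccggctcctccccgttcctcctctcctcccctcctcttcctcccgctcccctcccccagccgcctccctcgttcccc
Pbx4: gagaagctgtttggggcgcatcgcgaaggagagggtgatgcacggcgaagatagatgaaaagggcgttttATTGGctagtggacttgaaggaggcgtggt
The stretch of Pbx2 holds 76.0% G and C, whereas that of Meis2 holds 47.0% G and C, with Meis1 at 60.0%, Meis3 at 67.0% and Pbx4 at 54.0%. These shares sit at percentiles 91.8, 25.6, 62.2, 77.5 and 46.3 of all promoters.

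The wider promoters, from 250 bases before to 50 bases after the start site, were searched on both strands for short motifs. The GC box GGGCGG was found in Pbx2 alone among the 5, at positions -142 and -83 from the start site, and in 35.6% of the 32817 promoters. CCAAT was found in Meis1 (-54), Meis2 (-210) and Pbx4 (-197 and -30) and in 37.4% of all promoters, and TATAAA in Meis2 (-152) and in 13.6% of all. None of the 5 promoters held the Meis and Pknox core TGACAG (19.2% of all), the joint Pbx and Meis motif TGATTGAC (0.771%), the Pbx and Hox motif TGATTNAT (3.22%) or the nuclear receptor motif AGGTCA (16.3%). None held an RA receptor element made of a pair of such motifs, where AGTTCA was also taken and so was GGTTCA, in the same direction with a gap of 5 bases (0.0609% of all) or 2 bases (0.21%). A match is a run of letters and no match says only that these letters are not in this window. TGACAG and TGATTGAC can overlap in the letters TGAC, and AGGTCA is itself a component of the paired elements.

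The 3 Meis genes encode proteins that bring Pbx and Hox complexes to DNA. Meis1 and Meis2 had 0 to 8 reads in the Undiff libraries and 29 or more in each Day4 library, while Meis3 had 4 reads in the shallowest Day4 library. Meis1 was at 2.87 and 0 CPM in the Direct RNA Undiff replicates (1 and 0 reads) and at 102 and 85.4 CPM in the Day4 replicates. In cDNA it was at 3.16 and 3.83 CPM in Undiff and at 247 and 488 CPM in Day4. Both Day4 libraries thus lay far above both Undiff libraries on each platform. Ordered by mean CPM, Meis1 stood at 367 ± 171 CPM (SD, n = 2) in cDNA Day4, followed by Direct RNA Day4 (93.9 ± 11.9), cDNA Undiff (3.50 ± 0.472) and Direct RNA Undiff (1.43 ± 2.03), and none of these neighbours overlapped. With DESeq2 the Direct RNA log2 fold change between the states was 5.43 (SE 1.01, adjusted p = 3.64e-06), and that in cDNA was 6.09 (SE 0.59, adjusted p = 4.20e-22). In a bulk library, more cells that express a gene and more RNA per cell cannot be told apart, which holds for all the changes given here.

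Over both replicates the reads of Meis1 per 1e6 were 113 times higher in Day4 in Direct RNA (95% exact counting interval 19.8 to 4520, against 1 Undiff read) and 109 times higher in cDNA (60.7 to 219). The interval in Direct RNA rests on that single read. Leaving out any 1 library kept the call of Meis1 on both platforms, with log2 fold changes that ran from 3.92 to 5.85 in the Direct RNA fits and from 5.60 to 6.32 in the cDNA fits.

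Meis2, needed for neural crest and heart development, had no read in either cDNA Undiff library. In Direct RNA Undiff it was at 2.87 and 0 CPM (1 and 0 reads), against 353 and 190 CPM in Day4. In cDNA Day4 it was at 85.7 and 137 CPM (113 and 284 reads). The states did not overlap on either platform, and the order was Direct RNA Day4 (271 ± 115 CPM, SD, n = 2), cDNA Day4 (111 ± 36.1), Direct RNA Undiff (1.43 ± 2.03) and cDNA Undiff (0), with the Undiff groups overlapping each other at 0. The log2 fold change in Direct RNA was 6.91 (SE 0.93, adjusted p = 1.66e-11, DESeq2), and it was 5.36 to 7.23 in the fits without 1 library. The pooled reads per 1e6 were 295 times higher (52.5 to 11700), a ratio that rests on 1 Undiff read. In cDNA the pooled level was 118-fold higher in Day4 when the Undiff level is set at a floor of 3 reads over both libraries (0.988 CPM). That value is not a lower bound, since the exact counting interval of the ratio allows values down to 95.8.

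Meis2 was called higher in cDNA by DESeq2 (adjusted p = 1.28e-09), with a fitted log2 fold change of 7.62 that depends on the shrinkage, since the Undiff side is 0. That call was lost when the replicate number entered as a block, where the shrunken value was 1.57 (adjusted p = 0.794) and the unshrunken value 9.42 (SE 4.21, adjusted p = 0.189). The call held in each of the 4 fits that left out 1 library, with log2 fold changes of 6.24 to 7.36.

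Meis3 had the least even Direct RNA Day4 replicates among the Meis genes. In Direct RNA it was at 2.87 and 11.0 CPM in Undiff and at 14.1 and 85.4 CPM in Day4, where the lower Day4 value rests on 4 reads in the shallowest library. In cDNA it was at 1.05 and 2.87 CPM in Undiff and at 25.8 and 53.4 CPM in Day4. The Day4 libraries were above the Undiff libraries on both platforms, narrowly so in Direct RNA. By mean level the order was Direct RNA Day4 (49.8 ± 50.4 CPM, SD, n = 2), cDNA Day4 (39.6 ± 19.5), Direct RNA Undiff (6.94 ± 5.76) and cDNA Undiff (1.96 ± 1.29). The Day4 groups overlapped each other, and the Undiff groups touched at 2.87 CPM. The log2 fold change was 3.57 (SE 0.82, adjusted p = 0.000381) in cDNA and passed the test there. In Direct RNA it was 2.34 (SE 0.93, adjusted p = 0.0883) and did not. edgeR's quasi-likelihood test gave 2.60 (adjusted p = 3.49e-05) in Direct RNA. Without Day4 replicate 2 the DESeq2 value was 0.53 (adjusted p = 0.985) in Direct RNA and 2.84 (adjusted p = 0.296) in cDNA.

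**Figure D1:**
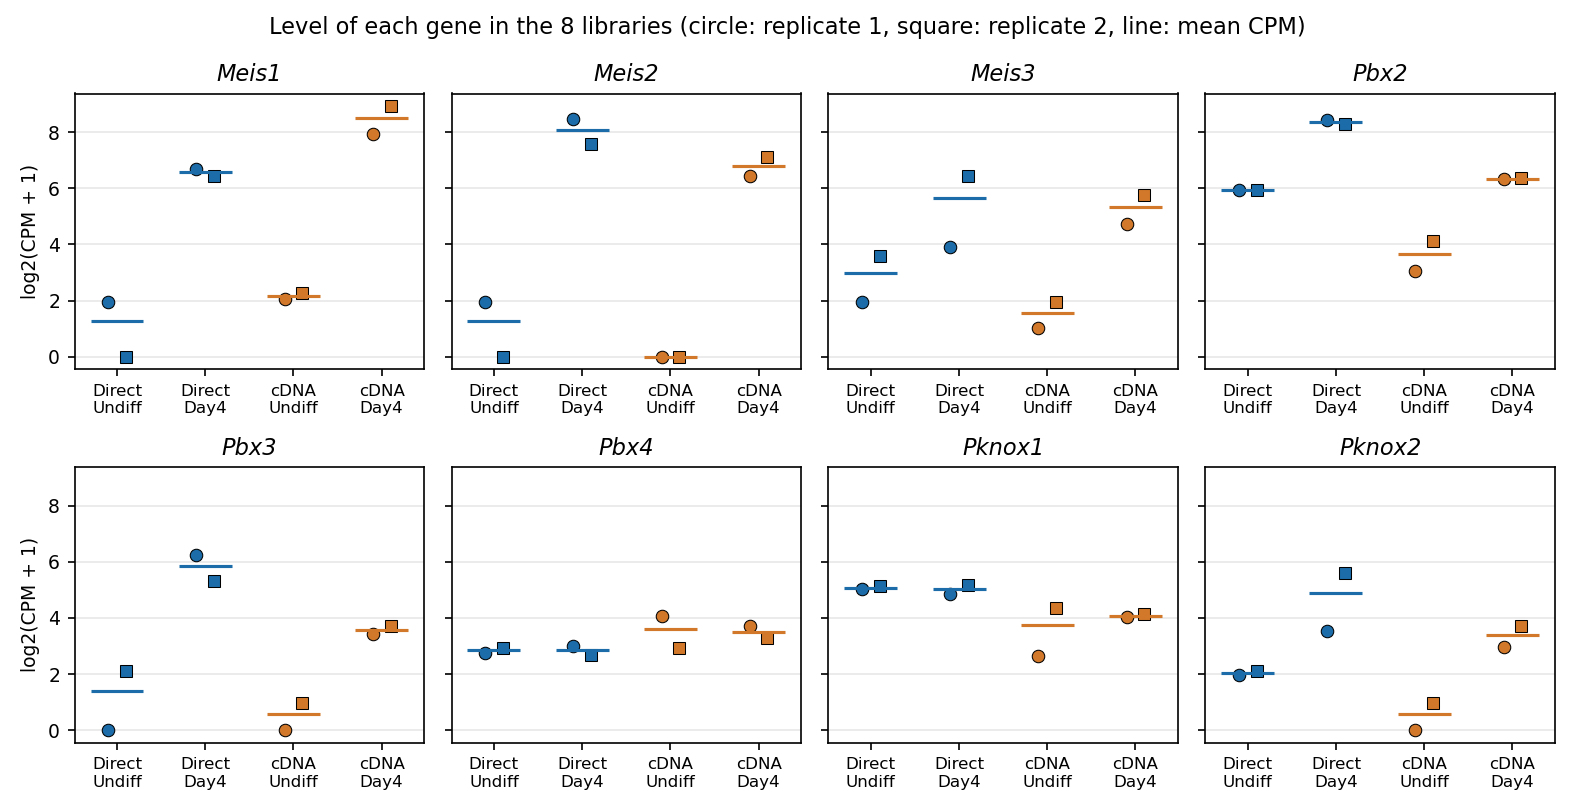
Level of each of the 8 genes in the 8 libraries, as log2(CPM + 1), with a circle for replicate 1, a square for replicate 2 and a line at the mean CPM of each group of 2 libraries (blue Direct RNA, orange cDNA). Meis1, Meis2, Meis3, Pbx2, Pbx3 and Pknox2 have both Day4 libraries above both Undiff libraries on each platform, and Pbx4 and Pknox1 do not.

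Among the Pbx genes, whose proteins are the direct DNA-binding partners of Hox proteins, Pbx2 had 7 or more reads in every library and rose, Pbx3 had a few reads in Undiff and many more in Day4, and Pbx4 was low throughout. Pbx2, which is broadly expressed in embryos and adults, was at 60.3 and 60.6 CPM in Direct RNA Undiff and at 342 and 312 CPM in Direct RNA Day4. The cDNA values were 7.38 and 16.3 CPM in Undiff and 78.9 and 82.3 CPM in Day4. The replicates of Direct RNA Undiff were nearly equal, and no Day4 library came close to an Undiff library of its platform. The order was Direct RNA Day4 (327 ± 21.5 CPM, SD, n = 2), cDNA Day4 (80.6 ± 2.42), Direct RNA Undiff (60.4 ± 0.241) and cDNA Undiff (11.8 ± 6.29), with no neighbours overlapping.

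The change of Pbx2 had the smallest standard error of the 8 genes on each platform, at a Direct RNA log2 fold change of 2.28 (SE 0.40, adjusted p = 5.92e-07) and a cDNA value of 2.32 (SE 0.57, adjusted p = 0.000969) from DESeq2. The pooled reads per 1e6 were 5.29 times (4.11 to 6.89) and 6.00 times (4.31 to 8.55) higher in Day4. In Direct RNA the call held whichever library was left out. In cDNA it was lost in 3 of 4 such fits, with adjusted p = 0.0610 without Undiff replicate 1, 0.124 without Day4 replicate 1 and 0.117 without Day4 replicate 2. Over all 4 fits the log2 fold change was between 1.89 and 2.82.

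Pbx3, which is expressed in the developing nervous system, was at 0 and 3.31 CPM in Direct RNA Undiff and at 74.1 and 39.3 CPM in Direct RNA Day4. The cDNA values were 0 and 0.958 CPM in Undiff (0 and 2 reads) and 9.86 and 12.0 CPM in Day4 (13 and 25 reads). The states were apart on both platforms, and the order was Direct RNA Day4 (56.7 ± 24.6 CPM, SD, n = 2), cDNA Day4 (10.9 ± 1.54), Direct RNA Undiff (1.65 ± 2.34) and cDNA Undiff (0.479 ± 0.677), the Undiff groups overlapping. The log2 fold change passed the test in Direct RNA (3.91, SE 0.98, adjusted p = 0.00136), and in cDNA it was 3.14 (SE 1.20, adjusted p = 0.0719), both with DESeq2. The Direct RNA call was lost in each of the 4 fits without 1 library, where the log2 fold change was 2.95 to 4.21. In cDNA edgeR called the gene (3.67, adjusted p = 0.00054), as did DESeq2 with its filters on (adjusted p = 0.0482). The pooled reads per 1e6 were 20.5 times higher in Day4 in Direct RNA (6.62 to 103) and 17.0 times higher in cDNA (4.39 to 145).

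Pbx4, a short member of the family known from the testis, was at 5.74 and 6.61 CPM in Direct RNA Undiff and at 7.06 and 5.42 CPM in Direct RNA Day4, that is 2 to 6 reads per library. On cDNA flow cells the values were 15.8 and 6.70 CPM in Undiff and 12.1 and 8.66 CPM in Day4. The states overlapped on both platforms. By mean level the order was cDNA Undiff (11.3 ± 6.44 CPM, SD, n = 2), cDNA Day4 (10.4 ± 2.46), Direct RNA Day4 (6.24 ± 1.15) and Direct RNA Undiff (6.18 ± 0.617), and neighbours overlapped except cDNA Day4 and Direct RNA Day4. The log2 fold change was -0.38 (95% interval -2.02 to 1.25, adjusted p = 0.921) in cDNA. In Direct RNA it was -0.10 (-2.58 to 2.38), with a mean of 3.09 normalised reads that is under the minimum of 5. Both intervals include a change of 2-fold either way, so a change of that size is not excluded.

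The Pknox genes differed from each other. Pknox1, which is expressed nearly everywhere and needed in the early embryo, was at 31.6 and 34.2 CPM in Direct RNA Undiff and at 28.2 and 35.3 CPM in Direct RNA Day4. The cDNA levels were 5.27 and 19.6 CPM in Undiff and 15.2 and 16.8 CPM in Day4. On each platform the Day4 values fell inside or around the Undiff range. The order was Direct RNA Undiff (32.9 ± 1.83 CPM, SD, n = 2), Direct RNA Day4 (31.7 ± 4.97), cDNA Day4 (16.0 ± 1.19) and cDNA Undiff (12.5 ± 10.2). In CPM the states overlapped on each platform whereas the platforms did not. A DESeq2 test between platforms, which scales by size factors, did not call Pknox1 (-0.44, adjusted p = 0.495). Between the states DESeq2 gave a log2 fold change of -0.13 (95% interval -1.57 to 1.30, adjusted p = 0.948) in Direct RNA and 0.02 (-1.51 to 1.55, adjusted p = 0.994) in cDNA. Pooled reads per 1e6 stood at 0.996 times the Undiff level (0.614 to 1.60) and 1.07 times (0.710 to 1.62).

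Pknox2, a paralogue with a narrower expression than Pknox1, was at 2.87 and 3.31 CPM in Direct RNA Undiff and at 10.6 and 47.5 CPM in Direct RNA Day4, where the lower value is 3 reads. Its cDNA levels were 0 and 0.958 CPM in Undiff and 6.83 and 12.0 CPM in Day4. Both Day4 libraries were above both Undiff libraries, but the Day4 replicates of Direct RNA were far apart. The order was Direct RNA Day4 (29.0 ± 26.1 CPM, SD, n = 2), cDNA Day4 (9.43 ± 3.68), Direct RNA Undiff (3.09 ± 0.308) and cDNA Undiff (0.479 ± 0.677), the Day4 groups overlapping. The Direct RNA log2 fold change of 2.62 (SE 1.08, adjusted p = 0.106) and the cDNA value of 2.91 (SE 1.24, adjusted p = 0.122) did not pass the test with DESeq2. They passed with edgeR, at 3.18 (adjusted p = 0.00014) and 3.47 (adjusted p = 0.0018). Without Day4 replicate 2 the DESeq2 value in Direct RNA was 0.88 (adjusted p = 0.985). The pooled reads per 1e6 were 11.7 times (4.21 to 45.1) and 15.2 times (3.90 to 131) higher in Day4.

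**Figure D2:**
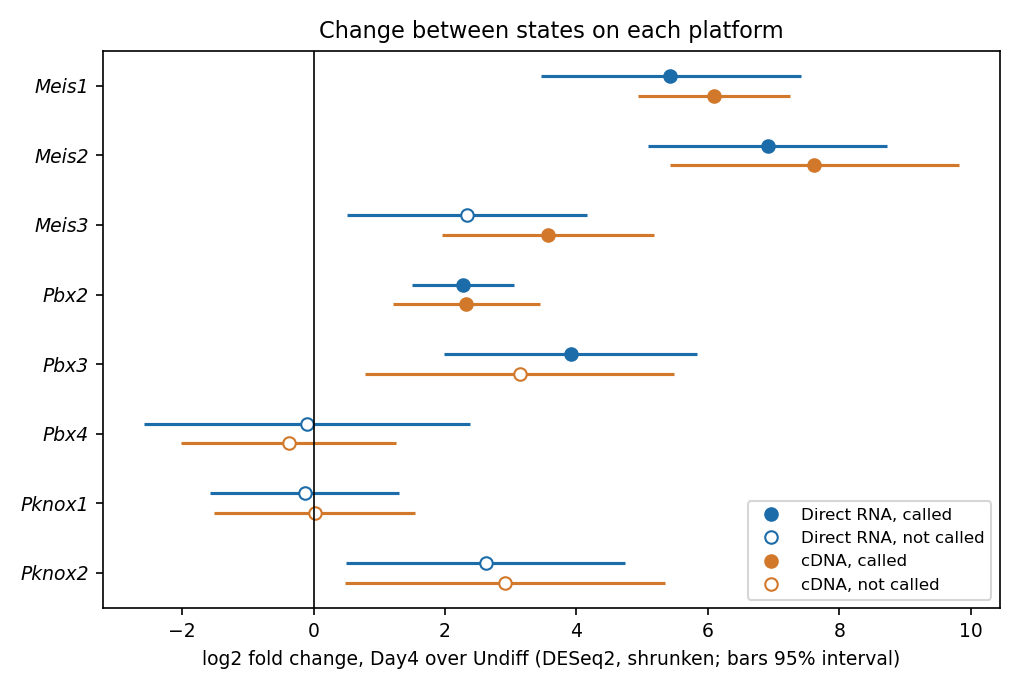
Log2 fold change of Day4 over Undiff for each gene on each platform from DESeq2, with 95% intervals; filled points were called. Meis1, Meis2 and Pbx2 are filled on both platforms, Meis3 in cDNA alone and Pbx3 in Direct RNA alone, and the intervals of Pbx4 and Pknox1 cross 0.

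A gene was called differentially expressed (DEG) when its adjusted p did not exceed 0.05, its log2 fold change reached 1 in either direction and its mean normalised count reached 5. Of the 8 genes, 7 reached that mean in Direct RNA, where Pbx4 fell short, and 8 in cDNA. In Direct RNA 4 were called higher in Day4 (Meis1, Meis2, Pbx2 and Pbx3), where 9.54% of 9646 genes were, and 0 were called lower, where 7.67% were. In cDNA 4 were called higher (Meis1, Meis2, Meis3 and Pbx2), where 8.69% of 10271 genes were, and 0 lower, where 9.24% were. Meis1, Meis2, Meis3, Pbx3 and Pknox2 reached the mean through their Day4 reads, so that these counts do not stand for genes sampled without regard to change. With edgeR 6 of 7 genes were called higher in Direct RNA, against 18.7% of genes, and 6 of 8 in cDNA, against 17.1%. By position alone, 6 of the 8 genes had both Day4 libraries above both Undiff libraries in Direct RNA, as had 31.9% of 15451 genes with a read. The same 6 genes (Meis1, Meis2, Meis3, Pbx2, Pbx3 and Pknox2) did so in cDNA, as had 36.9% of 16669 genes, and none of the 8 had both Day4 libraries below, as had 25.1% and 19.6%. The number of the 8 genes with more than 1 read was 3 and 6 in the Direct RNA Undiff replicates, 4 and 7 in the cDNA Undiff replicates, and 8 in each Day4 library. Of all 24421 genes, 10399 and 11822 had more than 1 read in Direct RNA Undiff, and 10631 and 12322 in Direct RNA Day4. In cDNA these numbers were 10793 and 12240 in Undiff and 11884 and 13180 in Day4. In each Undiff pair the lower number belongs to the library with fewer reads.

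The direction of Meis1, Meis2, Meis3, Pbx2, Pbx3 and Pknox2 was the same under both ways of scaling libraries. Scaling by size factors in place of CPM shifted the mean log2 scale of the Day4 libraries against the Undiff libraries by -0.10 in Direct RNA and -0.33 in cDNA. The shift of a single gene differs from this mean where its replicates differ, since the factor differs by library. For Pbx4 the pooled ratio of Day4 over Undiff was 1.05 (0.620 to 1.78) in cDNA and 0.923 (0.264 to 3.03) in Direct RNA.

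The make-up of the reads on the 8 genes does not depend on how a library is scaled. These genes together had 38 and 108 reads in the Direct RNA Undiff replicates and 264 and 590 in Day4, and 31 and 107 against 634 and 1683 reads in cDNA. Meis genes took 7.89% and 9.26% of these reads in the Direct RNA Undiff replicates and 50.4% and 45.1% in Day4. In cDNA they took 12.9% and 13.1% in Undiff and 74.4% and 83.7% in Day4. Every Day4 share of the Meis genes lay above every Undiff share, and the 95% Wilson intervals of the Day4 libraries (lowest bound 41.1%) did not meet those of the Undiff libraries (highest bound 28.9%). These intervals cover counting error only.

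The Pknox share was 31.5% ± 0.0689 (SD, n = 2) in Undiff and 7.25% ± 4.36 in Day4 in Direct RNA, and 28.2% ± 17.0 and 4.07% ± 0.714 in cDNA, with no overlap between states. A share can be lower without fewer reads of that gene, and the CPM of Pknox1 overlapped between states. The Pbx share was 59.9% ± 0.896 in Undiff and 45.0% ± 0.621 in Day4 in Direct RNA, and 58.8% ± 17.1 and 16.8% ± 5.84 in cDNA. The platforms differed in the share of Meis1 in Day4, which took 11.0% and 10.7% in the Direct RNA replicates and 51.3% and 60.2% in the cDNA replicates. Meis2 took 37.9% and 23.7% in Direct RNA Day4, and 17.8% and 16.9% in cDNA Day4. The least even pair of replicates was cDNA Undiff, where Pbx4 took 48.4% (32.0 to 65.2) of 31 reads in replicate 1 and 13.1% (7.96 to 20.8) of 107 reads in replicate 2.

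**Figure D3:**
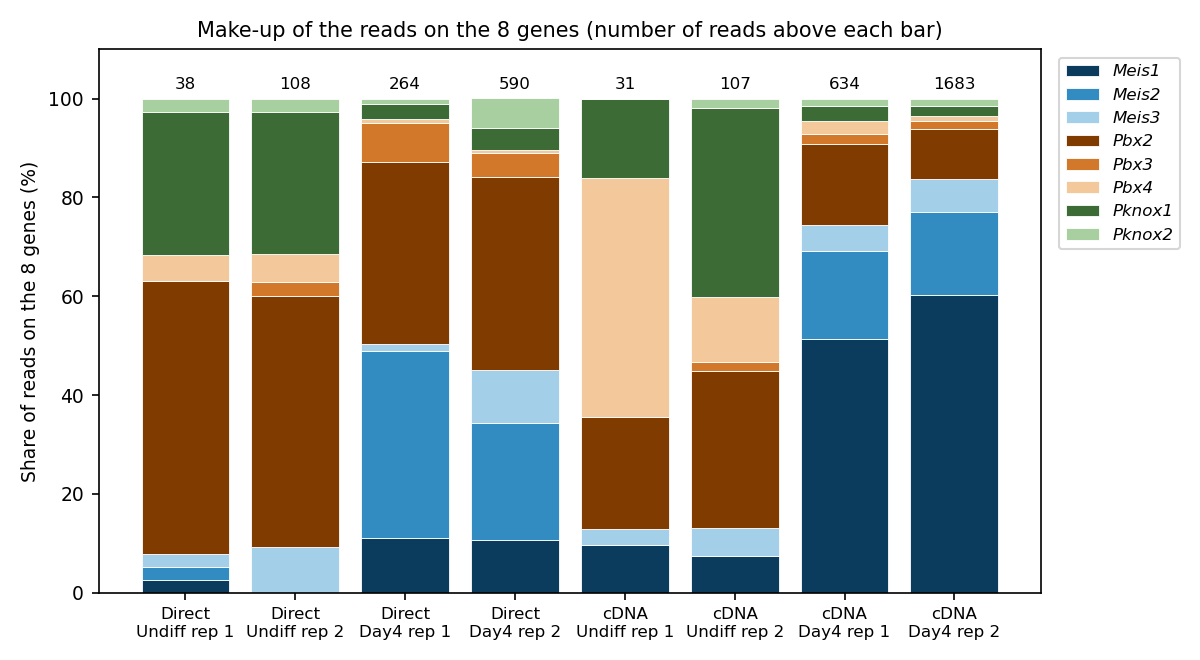
Share of each gene, in percent, among the reads on the 8 genes in each library, with the number of those reads above the bar. Meis genes (blue) hold 7.89% to 13.1% in the 4 Undiff libraries and 45.1% to 83.7% in the 4 Day4 libraries, and Meis1 is the widest segment in both cDNA Day4 libraries.

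Levels of different genes were compared per kb of the longest annotated transcript and also without that division. A long read can span a whole transcript, so that reads need not rise with length. The length of the transcripts made here was not measured. In Direct RNA Undiff, Pbx2 was highest at 19.7 ± 0.0786 CPM per kb (SD, n = 2), followed by Pknox1 (7.73 ± 0.431), Pbx4 (3.96 ± 0.395) and Meis3 (3.61 ± 2.99), the last pair overlapping, and the other genes were at or below 0.850 CPM per kb. In Direct RNA Day4, Pbx2 was still highest at 107 ± 7.00, followed by Meis2 (49.3 ± 21.0), Meis3 (25.9 ± 26.2) and Pbx3 (19.8 ± 8.60), each overlapping the next, and then by Meis1 (12.4 ± 1.58) and Pknox2 (7.99 ± 7.18), which overlapped each other, Pknox1 (7.46 ± 1.17), within the range of Pknox2, and Pbx4 (4.00 ± 0.740). Per kb, Pbx2 thus led the order in Direct RNA in both states, without overlap with the next gene. Without division by length, the ranges of Pbx2 and Meis2 overlapped in Direct RNA Day4, where Pbx2 had 97 and 230 reads and Meis2 100 and 140 reads, and Meis1 (93.9 ± 11.9 CPM) came next, ahead of the means of Pbx3 (56.7 ± 24.6 CPM) and Meis3 (49.8 ± 50.4 CPM).

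In cDNA Undiff the order began with Pbx4 (7.22 ± 4.13 CPM per kb), Pbx2 (3.86 ± 2.05) and Pknox1 (2.93 ± 2.39), none of which was apart from the next. In cDNA Day4, Meis1 led at 48.6 ± 22.6, ahead of Pbx2 (26.3 ± 0.788), Meis3 (20.6 ± 10.2) and Meis2 (20.2 ± 6.56), which overlapped, and of Pbx4 (6.67 ± 1.57). Below these came Pbx3 (3.83 ± 0.538) and Pknox1 (3.77 ± 0.279), which overlapped each other, and Pknox2 (2.60 ± 1.01). Without division by length the order in cDNA Undiff turned round, with Pknox1 at 12.5 ± 10.2 CPM, Pbx2 at 11.8 ± 6.29 and Pbx4 at 11.3 ± 6.44, all overlapping. In cDNA Day4 Meis1 still led at 367 ± 171 CPM, and Meis2 (111 ± 36.1) was then above Pbx2 (80.6 ± 2.42). The order of the genes thus depends in part on the division. The gene with the highest level per kb in Day4 was Pbx2 in Direct RNA and Meis1 in cDNA.

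Whether the change between states differed between the platforms was tested as an interaction over all 8 libraries. With DESeq2 none of the 8 genes had an adjusted p under 1.0 and 0 had an unadjusted p of at most 0.05, where 0.932% of 17267 genes did. Calls were rare over all genes, at 0.0116% lower and 0.0% higher. With edgeR 0 of the 8 were called or had an unadjusted p of at most 0.05, where 2.66% of genes did, and 0.0811% of genes were called lower. The difference of the log2 changes, cDNA minus Direct RNA, was most tightly bounded for Pbx2 (0.06, 95% interval -1.23 to 1.35). It was 0.16 for Pknox1 (-1.96 to 2.27), -0.32 for Meis1 (-3.26 to 2.62) and 1.24 for Meis3 (-1.52 to 4.00). For Meis2 (1.20, -2.83 to 5.22), Pbx3 (-0.69, -4.32 to 2.94), Pbx4 (-0.30, -3.42 to 2.83) and Pknox2 (0.49, -3.48 to 4.46) the intervals spanned more than 6 log2 units. The interval of Pbx2 thus allows a difference of up to 1.35 log2 units between platforms, and those of the genes with few Undiff reads allow much larger differences.

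The level itself did differ between platforms for some of the genes. With all 8 libraries in the fit and state as covariate, DESeq2 called 2 of the 8 genes higher in cDNA, where 24.7% of 10426 genes were, and 2 lower, where 26.6% were. Meis1 was higher in cDNA, with a log2 difference of 2.51 (SE 0.37, adjusted p = 2.89e-10), and Pbx4 too, with 1.45 (SE 0.61, adjusted p = 0.0460). Pbx2 was lower in cDNA, with -1.38 (SE 0.24, adjusted p = 8.37e-08), and Pbx3 too, with -1.48 (SE 0.57, adjusted p = 0.0288). Meis2 (-0.68, SE 0.42, adjusted p = 0.230), Meis3 (-0.23, SE 0.61, adjusted p = 0.899), Pknox1 (-0.44, SE 0.40, adjusted p = 0.495) and Pknox2 (-1.09, SE 0.69, adjusted p = 0.244) did not pass the test. Size factors in place of CPM raised the mean log2 scale of the cDNA libraries against the Direct RNA libraries by 0.75, and the shift of a single gene depends on which libraries hold its reads.

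The calls of Meis1 and Pbx2 between platforms held in all 8 fits without 1 library. The call of Pbx4 was lost in 7 of 8 such fits and that of Pbx3 in 5 of 8. With state and replicate number as a block, which is not known to pair the platforms, Pbx3 (-1.40, adjusted p = 0.0689) and Pbx4 (1.32, adjusted p = 0.0950) were no longer called, which left 1 of the 8 genes higher, where 23.5% of genes were, and 1 lower, where 25.0% were. The kits thus differed for a Meis and a Pbx gene beyond the spread of the libraries, in opposite directions. Direct RNA was counted by strand and cDNA is not stated to be. Antisense reads on Meis1 in cDNA thus cannot be told apart from a difference of the kits.

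Across all genes, the difference between kits went with transcript length. The median log2 difference, cDNA over Direct RNA, was 1.06 in 2190 genes with transcripts of up to 2000 bases, 0.16 in those of 2000 to 3000 bases, -0.36 in those of 3000 to 4000 bases, -0.63 in those of 4000 to 6000 bases and -0.58 in 1373 genes of over 6000 bases. Pbx4 (1560 bases) was on the side of the short genes, whereas Meis3 (1925 bases) was at -0.23 in the same class. Pbx3 (2858 bases) at -1.48 and Pbx2 (3068 bases) at -1.38 were below the medians of their classes. Meis1, with the longest transcript of the 8 at 7553 bases, was at 2.51 in a class where 64.1% of genes were below 0. The length of the transcripts that these cells make from Meis1 was not measured here.

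**Figure D4:**
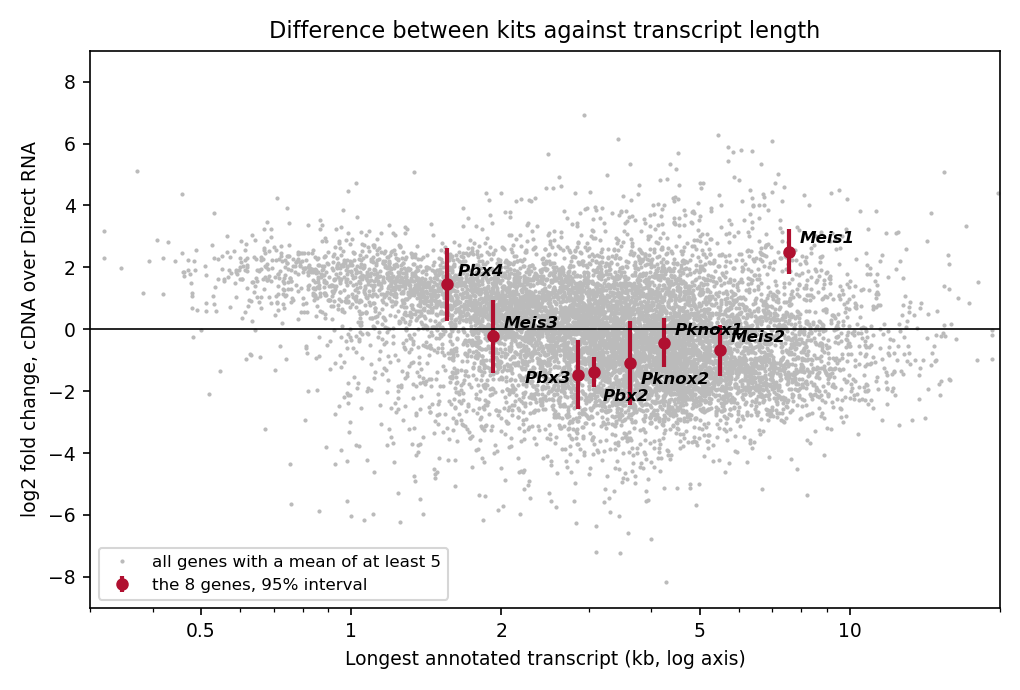
Log2 fold change of cDNA over Direct RNA from DESeq2 against the longest annotated transcript in kb (log axis), for genes whose mean reached 5 (grey) and for the 8 genes with 95% intervals (red). Meis1 lies at 2.51 among long genes, most of which are below 0, while Pbx4 at 1.45 lies among short genes, most of which are above 0.

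Hox genes, whose proteins work with these cofactors, and genes of the RA pathway were set beside them. The lists were written with earlier results of these data known, and many of their genes had close to 0 reads in Undiff and so reached the mean of 5 through Day4. Of 15 Hox genes of paralogue groups 1 to 5, 12 reached that mean in Direct RNA and 11 in cDNA, and all of these were called higher, where 9.54% and 8.69% of all genes tested were, with median log2 fold changes of 6.23 and 6.39 against 0.03 and 0.00 over all genes. Of 15 Hox genes of groups 6 to 10, 7 and 9 reached the mean and were called higher, with medians of 5.14 and 4.80. Hoxc5 (8.04 in Direct RNA and 7.21 in cDNA), Hoxa5 (8.28 and 6.39) and Hoxc4 (7.57 and 7.07) had the highest mean log2 fold changes of groups 1 to 5, and Hoxb1 (3.77, under the mean of 5, and 5.52), Hoxa3 (4.92 and 3.43) and Hoxd4 (4.1 and 2.96), both under the mean of 5 and not called in cDNA, the lowest of those called on either platform. In groups 6 to 10 Hoxc6 (6.19 and 5.91), Hoxd8 (4.69 and 6.97) and Hoxc8 (4.66 and 6.52) were highest. Hoxb7 (3.98 and 3.29), Hoxa10 (2.62 and 4.03) and Hoxa7 (1.15 and 4.11) were lowest, and their Direct RNA means were under 5, so that a call was possible in cDNA alone. The log2 change of Pbx2 (2.28 and 2.32) was below the fitted value of every Hox gene called on the same platform. Many of those genes, like Meis2 in cDNA, had 0 reads in Undiff, so that their fitted values depend on the shrinkage and the depth and their sizes are not compared further.

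Of 16 genes of the RA pathway, 14 reached the mean in Direct RNA, 11 of them called higher, and 15 in cDNA, 8 of them called higher, with medians of 3.24 and 3.23, beside the same 9.54% and 8.69% of all genes. Rarb, an RA receptor that RA is known to induce, was at 8.07 in Direct RNA and 6.85 in cDNA. Cyp26b1, which breaks RA down, was at 7.54 and 6.90, and Dhrs3, which reduces retinaldehyde, at 6.31 and 7.87. Rdh10 (2.79 and 2.36), Crabp1 (2.18 and 1.02) and Rxra (2.16 and 0.75) had the smallest mean change of those called, each called in Direct RNA alone. In a list of 10 genes, made of other TALE homeobox genes and of Pbxip1, whose protein binds Pbx, 5 reached the mean in Direct RNA and 4 in cDNA. Irx3 and Irx5, both at 3.79 in Direct RNA, were called higher there. In cDNA they had 0 to 3 reads per library, too few for a call, and none of the list was called. The medians of this list were 2.08 and 0.50. No gene of the 4 lists was called lower, where 7.67% of all genes tested were in Direct RNA and 9.24% in cDNA, and a gene with close to 0 reads in Undiff could hardly be called lower.

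**Figure D5:**
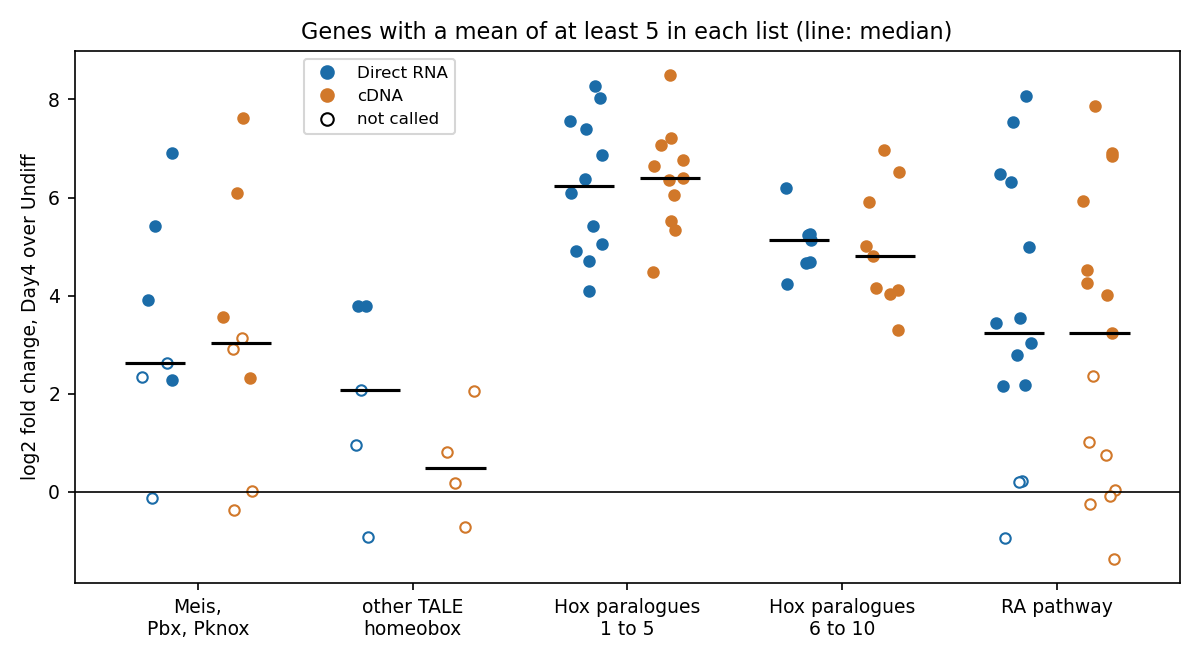
Log2 fold change of Day4 over Undiff for the genes of each list whose mean reached 5 on each platform; filled points were called and the line is the median. Called genes of the Hox lists lie above 3, while the Meis, Pbx and Pknox genes spread from below 0 to 7.62.

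The genes whose levels followed each member most closely over the 8 libraries were found by Pearson's r of log2(CPM + 1), among genes whose mean was 20 reads or more. The libraries fall into states and platforms, so that r mainly reflects these differences and is a description. For Meis2 the highest were Tshz1 (r = 0.998), Tmem108 (0.992) and 6330403K07Rik (0.992), and for Meis1 Fundc1 (0.994), Prkar1a (0.992) and Ctsb (0.991). For Meis3 they were Kiz (0.981), Tmem45a (0.975) and Blcap (0.971). For Pbx2 they were Eid1 (0.998), Csnk1d (0.996) and Sepn1 (0.995), and for Pbx3 Wnt11 (0.990), Il11ra1 (0.986) and Pkdcc (0.986). For Pknox1 they were Dmap1 (0.989), Nudt16l1 (0.986) and Tln1 (0.982), and for Pknox2 H13 (0.992), Tmem186 (0.983) and Cox7a2l (0.981). An r above 0.9 was common for some members and rare for others, reached by 7.62% of the 6668 genes compared for Pbx2, 6.40% for Meis2, 5.19% for Meis1 and 1.00% for Meis3. Pbx4, with too few reads for the rule, was left out.

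Among the members themselves, r over the 8 libraries was highest for Meis3 and Pknox2 (0.93), Meis1 and Meis2 (0.91) and Pbx2 and Pknox2 (0.91). It was lowest for Pbx4 and Pknox1 (-0.93), the 2 genes whose states overlapped. By mean CPM, Pbx4 was higher and Pknox1 lower in the cDNA groups than in the Direct RNA groups. The DESeq2 platform test did not call Pknox1 (-0.44, adjusted p = 0.495). Its call of Pbx4 held in 1 of 8 fits without 1 library. The part of the platforms in this r was not tested.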

How the data were processed

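The authors base-called Direct RNA reads with albacore or Guppy, removed adapters with Poreplex (porechop for cDNA), aligned reads to mm10 with minimap2 and counted them per gene with htseq-count and the UCSC annotation of iGenomes. Direct RNA was counted by strand, and for cDNA this is not stated. The deposited values are raw counts for 24421 genes in each of 8 libraries. The 5 counters of reads given to no gene, 38.1% to 61.7% of each file's total, were left out of library sizes and tests. CPM, pooled ratios, exact and Wilson 95% intervals were computed in Python 3.11.15 with SciPy 1.17.1, and intervals and floors cover counting error only.

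State was tested for each platform with DESeq2 1.42.0 in R 4.3.3, following the study's settings (Wald test, shrunken log2 fold changes, Cook's cutoff and independent filtering off), over all genes with Benjamini-Hochberg adjustment. The interaction and the platform test used all 8 libraries. Alternatives were edgeR 4.0.16, TMM factors, no shrinkage, filters, a replicate block and leaving out each library. The fits were also run on simulated counts in which only genes with many reads were changed, so that run does not cover genes with few Undiff reads. Replicates of each group differed by more than sampling noise (chi-square per degree of freedom 2.68 to 14.9), so all were kept.

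The members and lists were chosen with earlier results of these data known. Genes named for likeness are the 3 with the highest r among genes whose mean was 20 reads or more, for members whose mean reached 5 in both state tests. From each list, the 3 highest and 3 lowest mean changes of called genes are named. Depth limits the members with few Undiff reads. Other genes of the families and short-read libraries were not analysed here.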

Additional observations from a re-analysis of the deposited data

How the results depend on the processing

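Over all genes, 1660 were called between states in Direct RNA, 1842 in cDNA, 2 in the interaction and 5344 between platforms with DESeq2. edgeR called 3267, 3355 and 14 in the first 3. Where every library had to hold 10 reads of a gene the counts were 723, 989, 1 and 1674, and since most of the 8 genes then had no value, 1 was called in Direct RNA and 0 in cDNA, and 0 higher and 0 lower between platforms. TMM factors left 1 gene in the interaction. Leaving out 1 library gave 393 to 797 genes in Direct RNA, 709 to 1020 in cDNA and 0 to 13 in the interaction. Of the 8 genes, 3 were called higher in Direct RNA and 2 to 4 in cDNA in those fits, and 1 to 2 higher and 1 to 2 lower between platforms. Signs changed only for values that had not passed the test. edgeR gave -0.03 for Pknox1 in cDNA. Without 1 library the log2 change was -0.21 to 0.04 for Pbx4 and -0.29 to 0.05 for Pknox1 in Direct RNA, and -0.89 to 0.27 and -0.58 to 1.01 in cDNA. The difference between platforms of Meis3 was -0.68 to 0.32. The interaction was -2.33 to 1.40 for Meis1, -0.82 to 2.90 for Meis2, -0.22 to 3.18 for Meis3, -0.25 to 0.63 for Pbx2, -2.78 to 0.77 for Pbx3, -0.93 to 0.57 for Pbx4, -0.40 to 1.24 for Pknox1 and -0.16 to 2.12 for Pknox2. Scaling by size factors put the summed level of the 8 genes at 88.1 in place of 114 CPM in Direct RNA Undiff, 611 in place of 866 in Direct RNA Day4 and 58.3 in place of 42.0 in cDNA Undiff. The causes of these moves were not tested.

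The replicate numbers were not taken as a pairing, since there are 2 pairs and their deviations correlated at 0.214 between the Direct RNA states, 0.5 between the cDNA states, 0.124 between the platforms in Undiff and -0.416 in Day4. With the replicate block 843 genes were called in Direct RNA (825 without shrinkage) and 1375 in cDNA. Between platforms, a block of state and replicate number left 1 of the 8 genes higher and 1 lower, with Meis3 at 0.02. With the Day4 numbers crossed, a choice made after seeing the data, as was the block without shrinkage, these counts were 1 and 1 and the interaction called 1 gene.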
